A study of Mus musculus and Mus musculus
Oryx dammah with 30 samples.

Results

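Rnd3, Lzic, Tmem144, Nck2 and Kctd9 are 5 genes that the study named among transient genes of transfer embryos, and their expression was followed here mainly at the two-cell stage. Rnd3, Lzic and Tmem144 were picked in the study as marker candidates of reprogramming, while Nck2 and Kctd9 were not, and the 5 are called candidates here for brevity. After RT-PCR the study proposed Rnd3 as a marker, with Aqp3, Plk2 and Kti12, and Lzic and Tmem144 were not among those proposed. They were taken by gene name from 3 expression tables, and all 5 were found in each, among 55364 genes in the two-cell table and 53023 genes in the four-cell and the replication tables. In every experiment nuclear transfer (NT) embryos were made by fusing C2C12 cells, a mouse myoblast line from the C3H strain, with embryos from C57BL/6 oocytes and DBA/2 sperm that were arrested with 0.1 µg/ml demecolcine, an inhibitor of microtubule assembly, and all NT embryos were cultured for 24 h with demecolcine. In the two-cell experiment each library came from a pool of 5 NT embryos, made at 21 hours post insemination (hpi) with early or at 30 hpi with late two-cell embryos, and 6 libraries were made with and 6 without α-amanitin. In the four-cell experiment NT was done at 46 hpi, and 3 libraries with and 3 without α-amanitin were each made from 3 embryos. In the replication experiment C2C12 nuclei were transferred before or after DNA replication of the four-cell stage, in groups named D and DR with 3 libraries of 4 embryos each, and the labels used here do not say which letter stands for replication. As a model, each pool mixes RNA of the embryo with RNA from the donor nucleus and its cytoplasm, donor cells come from a single line, and the tables used here do not separate the strains.

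α-Amanitin binds RNA polymerase II and stops elongation, so that an RNA that depends on new transcription during culture is lower in treated embryos, whereas RNA stored in the oocyte or brought in by the donor cell can persist. In the mouse the two-cell stage is when the embryo's genome becomes broadly transcribed, and maternal RNA is cleared over the same period. The candidates have unlike functions: Rnd3 is an atypical small GTPase that stays bound to GTP and acts on the actin cytoskeleton, Nck2 is an SH2 and SH3 adaptor that links phosphotyrosine signals to actin regulators, Lzic shares a domain with the β-catenin inhibitor ICAT, Kctd9 belongs to the KCTD family, several of whose members are substrate adaptors of the Cul3 ubiquitin ligase, and Tmem144 is a membrane protein of the family of carbohydrate transporters.

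The candidates lie on 5 chromosomes, and all are protein-coding genes in mm10. Rnd3 lies at chr2:51130438-51149111 on the minus strand, Lzic at chr4:149485229-149496668 on the plus strand, Tmem144 at chr3:79812564-79852773 on the minus strand, Nck2 at chr1:43444579-43570515 on the plus strand and Kctd9 at chr14:67715937-67742310 on the plus strand. Of the 5 genes, 4 had a promoter in the RefSeq set for build GRCm38.p6, which shares mm10 coordinates, and Kctd9 was not among them. The 250 bases before the start are printed for these 4 genes to show how unlike the upstream regions of the candidates are. For Tmem144, with 4 RefSeq starts, and Lzic, with 2, the start nearest to that of the tables was taken, and the Nck2 start lies 1172 bases downstream of the gene's first base in the tables. Capitals mark matches, on either strand, to 4 motifs chosen with the study's own motif results known: CCCTCCCC (a C-rich core like that bound by ZFP281), AGGTCA (the half-site of nuclear receptors such as the retinoic acid receptors), TATAAA (the TATA box) and CCAAT (the CCAAT box).
Rnd3, chr2:51149112-51149361, minus strand: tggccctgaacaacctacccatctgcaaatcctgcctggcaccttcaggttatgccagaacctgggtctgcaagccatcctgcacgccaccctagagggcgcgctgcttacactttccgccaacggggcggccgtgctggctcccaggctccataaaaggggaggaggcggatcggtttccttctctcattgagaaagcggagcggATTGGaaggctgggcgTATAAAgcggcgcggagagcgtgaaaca
Lzic, chr4:149484979-149485228, plus strand: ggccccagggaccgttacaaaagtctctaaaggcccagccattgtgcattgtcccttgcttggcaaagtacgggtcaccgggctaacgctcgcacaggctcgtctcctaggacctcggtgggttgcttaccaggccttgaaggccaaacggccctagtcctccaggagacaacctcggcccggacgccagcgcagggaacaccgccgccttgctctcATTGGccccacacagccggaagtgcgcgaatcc
Tmem144, chr3:79852769-79853018, minus strand: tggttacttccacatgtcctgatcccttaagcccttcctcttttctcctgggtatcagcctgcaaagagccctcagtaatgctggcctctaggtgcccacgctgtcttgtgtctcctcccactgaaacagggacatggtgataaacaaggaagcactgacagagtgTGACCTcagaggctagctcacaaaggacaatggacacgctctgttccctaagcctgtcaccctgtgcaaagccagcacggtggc
Nck2, chr1:43445501-43445750, plus strand: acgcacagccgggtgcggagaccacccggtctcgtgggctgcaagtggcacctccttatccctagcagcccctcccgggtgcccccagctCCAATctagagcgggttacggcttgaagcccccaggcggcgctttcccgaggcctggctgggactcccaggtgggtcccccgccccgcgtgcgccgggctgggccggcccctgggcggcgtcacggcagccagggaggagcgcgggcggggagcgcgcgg
These windows differed in base composition. The Nck2 window was 75.2% G or C, higher than 96.1% of the 32851 RefSeq promoters, and that of Tmem144, at 53.6%, stood near the promoters' median of 52.4%. Rnd3 was the one with a TATAAA match, 28 bases before its start, a motif that 12.4% of all promoter windows held. CCAAT matches stood 44 bases before the start of Rnd3, 33 before that of Lzic and 160 before that of Nck2, against 33.8% of all windows with a match. The AGGTCA half-site was matched once in the printed Tmem144 window, 84 bases before the start, and is present in 14% of windows. CCCTCCCC was matched in none of the 8 RefSeq windows of the 4 genes and in 9.69% of all windows, which says only that these letters are not in these windows.

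The two-cell libraries held 4712268 to 10503779 reads on genes and spike-in RNA, the four-cell libraries 1136771 to 3101002 and the replication libraries 2603946 to 19181387. Two-cell columns are named NT (3), r or R (3), Am (3) and RAm (3). Names with Am were taken as α-amanitin (+) and the others, including r and R, as α-amanitin (−). The names do not say which columns are early and which late two-cell embryos, so the NT and Am columns and the R and RAm columns are treated as 2 sets by name only. The 3 RAm libraries stood apart from all others on the first principal component, which held 68.2% of the variance, at 169 to 191 against -97.8 to -3.71, so the values of the candidates and the counts of the partner lists are also given for the NT and Am columns alone. Of the marker lists read as a check of the labels, 10 maternal transcripts had a summed level of 75.1 to 259 FPKM without and 259 to 2233 FPKM with α-amanitin. Of these, 8 of 10 were lower without it, against 3 of 9 in the NT and Am columns alone and 1 of 10 with spike-in scaling. FPKM is fragments per kilobase of exon, scaled to the reads of the library, and levels of different genes are compared on this scale because it is divided by length. The 12 genes of the two-cell burst summed to 98.7 to 1047 FPKM without and 22.3 to 62.8 FPKM with α-amanitin. Of the 10 tested, 6 were higher and 1 lower without it, against 4 higher and 4 lower in the NT and Am columns alone and 5 higher and 4 lower under median of ratios. Of the 12 donor myoblast markers, 3 were at 1 FPKM or more in every untreated two-cell library and 3 in every treated one. Myog and Pax7 were at 0 in every two-cell library and Myf5 also in every treated one. The 12 summed to 20.3 to 497 FPKM without and 45.4 to 102 FPKM with α-amanitin. Of the 6 tested, only Col3a1 was called, higher without it (19.4 against 1.06 FPKM, log2 difference 3.08, limma adjusted p = 0.00014). With spike-in scaling 4 of the 6 were higher. Libraries are pools, so fewer embryos or donor cells expressing a gene and less RNA per cell cannot be told apart. The study describes its replicates as independent biological ones, and the column names do not tie libraries to collections.

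At the two-cell stage all 5 candidates had higher mean levels without α-amanitin, except that the difference of Kctd9 turned to -0.18 on the log2 scale under median of ratios scaling. On the deposited scale Tmem144 was higher in each untreated library than in any treated one, and Lzic was 2.08-fold higher by mean level without α-amanitin. Rnd3, Nck2 and Kctd9 had overlapping groups and no call on that scale. Lzic overlapped between groups as well. In the fit over all genes (limma on log2(FPKM + 1) of 17196 genes with at least 1 FPKM in 3 libraries, call at adjusted p under 0.05), 38.9% of genes were higher and 8.51% lower without α-amanitin. Lzic was thus 1 called gene among the 3 candidates that passed the filter on low values, Lzic, Rnd3 and Kctd9, and Tmem144 and Nck2 did not pass it. Untreated libraries were all above the treated ones for 16.3% of these genes and for none of the 3. None of the 3 met the stricter rule of a call with at least 4-fold difference on this scale, which 11.1% of genes did in the upward direction. With spike-in scaling, which the study's methods name for its own contrasts, all 3 were called, beside 71.4% of genes called higher.

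**Figure D1:**
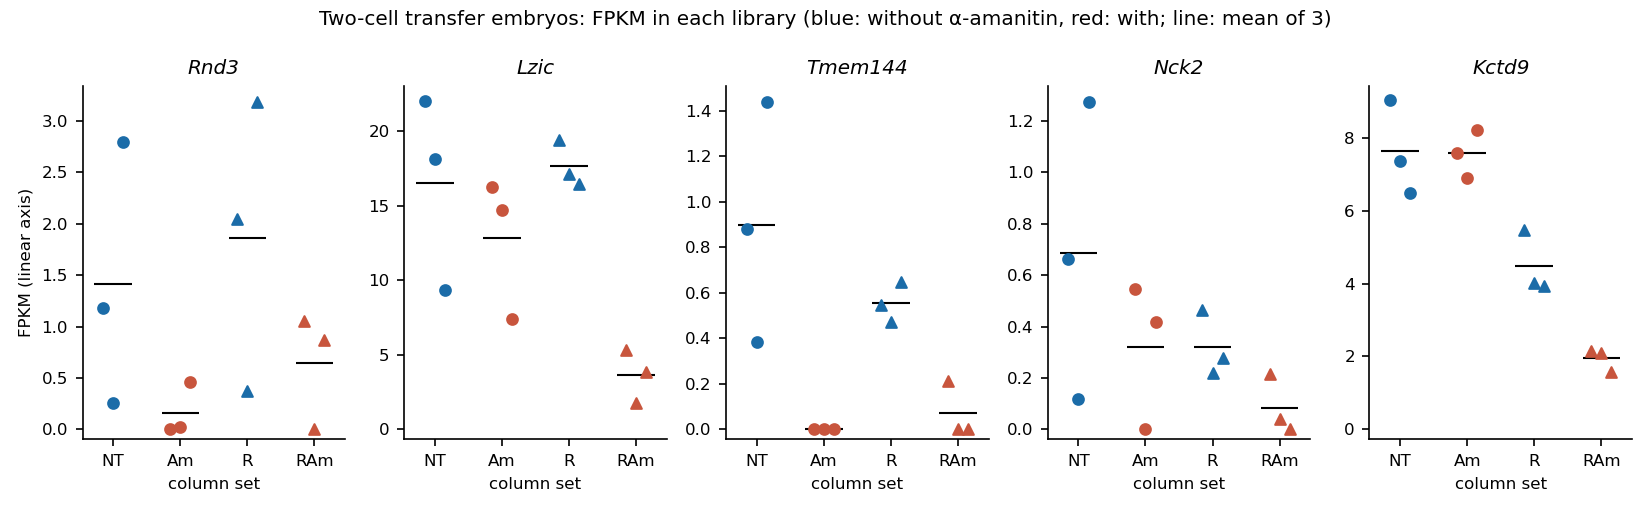
FPKM on a linear axis in each two-cell library for the 5 genes, by column set (NT, Am, R and RAm), with circles for the NT and Am columns and triangles for the R and RAm columns. Blue points are without and red points with α-amanitin, and the line is the mean of 3. Tmem144 is at 0 in 5 of 6 treated libraries, and Lzic and Kctd9 separate in the R and RAm columns and overlap in the NT and Am columns.

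Tmem144 was low but present in every untreated two-cell library. Its level was 0.881, 0.382 and 1.44 FPKM in the NT columns and 0.548, 0.470 and 0.649 FPKM in the R columns, resting on 14 to 38 reads each. In treated embryos it was at 0 in the 3 Am libraries and in RAm2 and RAm3, and at 0.212 FPKM, or 7 reads, in RAm1. On the deposited scale the groups did not overlap, which held for 8.37% of the 38827 genes in the fit with no filter. The difference in mean log2(FPKM + 1) was 0.72, higher in 6 of 6 untreated libraries. In a two-sided exact permutation test over 924 assignments of the 12 libraries p was 0.0022, the smallest that they can give. The permutation did not take the column sets into account. In the limma fit with no filter on low values the same difference had SE 0.14 and an adjusted p of 0.0074, against 14.2% of all genes higher without α-amanitin in that fit. In the NT and Am columns alone, the level without α-amanitin was at least 6.42-fold higher, counting each treated library at 3 reads, the limit that a count of 0 allows. Beside the 12.4 ± 4.30 FPKM (SD, n = 3) of untreated four-cell NT embryos, the 0.728 ± 0.388 FPKM (SD, n = 6) of untreated two-cell NT embryos is small, though the tables were normalized separately and no test was made between them.

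Lzic was the most highly expressed candidate in both two-cell groups, by mean, and it was found in every treated library. Without α-amanitin it stood at 22.0, 18.1 and 9.33 FPKM in the NT columns and at 19.4, 17.1 and 16.5 FPKM in the R columns. With α-amanitin it stood at 16.3, 14.7 and 7.43 FPKM in the Am columns and at 5.33, 1.73 and 3.83 FPKM in the RAm columns, so all 3 RAm libraries were below every untreated library whereas Am1 and Am2 were above NT3. Means were 17.1 ± 4.28 and 8.22 ± 5.96 FPKM (SD, n = 6). The difference on the log2 scale was 1.21 (SE 0.44, 95% interval 0.27 to 2.15, limma adjusted p = 0.036), or 0.54 above the 0.67 median difference of all genes, and the exact permutation p was 0.017. The call depended on single libraries: leaving out each of the 12 in turn gave differences of 0.92 to 1.45 and adjusted p of 0.013 to 0.083, above 0.05 without NT1, NT2, r1, r2, R3, RAm1, RAm2 or RAm3, while the exact permutation p stayed between 0.0065 and 0.043.

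Kctd9 was found in every treated two-cell library too. Untreated libraries held 9.06, 7.36 and 6.50 FPKM in the NT columns and 5.49, 4.01 and 3.95 FPKM in the R columns. Treated libraries held 7.60, 6.91 and 8.23 FPKM in the Am columns and 2.16, 2.10 and 1.57 FPKM in the RAm columns. Thus the Am libraries lay within the range of the NT libraries, while the RAm libraries lay below all others. The pooled difference was 0.45 on the log2 scale (SE 0.39, 95% interval -0.38 to 1.28, limma adjusted p = 0.35, exact permutation p = 0.26), below the 0.67 median of all genes, and it changed sign to -0.18 when libraries were scaled to the median of ratios over genes. The interval includes a 2-fold difference on this scale, so the data do not show that Kctd9 is insensitive to α-amanitin.

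Rnd3 varied widely within groups at the two-cell stage. Its untreated levels were 1.18, 0.258 and 2.80 FPKM in the NT columns and 2.04, 0.369 and 3.18 FPKM in the R columns. Treated levels were 0, 0.0242 and 0.458 FPKM in the Am columns and 1.05, 0 and 0.872 FPKM in the RAm columns, on 0 to 44 reads. The low untreated libraries NT2 and r2 fell within the treated range, so the groups overlapped. The means differed 4.09-fold, 1.64 ± 1.23 against 0.401 ± 0.471 FPKM (SD, n = 6), and on the log2 scale by 0.83 (SE 0.34, 95% interval 0.11 to 1.56), which missed the threshold in the fit over all genes (limma adjusted p = 0.056) and in the exact permutation test (p = 0.054). It was called without NT2, r2 or RAm1, with adjusted p of 0.030, 0.036 and 0.047, and not when any other library was left out, while the exact permutation p was 0.024, 0.028 and 0.041 without these and 0.045 without RAm3. The groups overlapped in both column sets. Rnd3 was called with the column set as a covariate (limma adjusted p = 0.048) and with the replicate block described below (limma adjusted p = 0.026). It was not called under median of ratios (limma adjusted p = 0.37).

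Nck2 had the lowest mean of the candidates in untreated two-cell libraries. Untreated libraries had 0.664, 0.118 and 1.27 FPKM in the NT columns and 0.463, 0.218 and 0.277 FPKM in the R columns. Treated libraries had 0.548, 0 and 0.417 FPKM in the Am columns and 0.214, 0.0381 and 0 FPKM in the RAm columns. Highest of all was NT3, and the treated Am1 and Am3 exceeded 4 and 3 of the 6 untreated libraries. The groups overlapped in the NT and Am columns and not in the R and RAm columns, where untreated libraries were all above treated ones for 61.5% of the genes tested. The mean log2 difference of 0.30 had an exact permutation p of 0.14 and, in the fit with no filter, a 95% interval of -0.11 to 0.71 (limma adjusted p = 0.30), at 5.5 to 43 reads per untreated library.

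The α-amanitin difference of Lzic and Kctd9 was not the same in both sets of columns. In the R and RAm columns alone, Lzic was 4.86-fold and Kctd9 2.31-fold higher without α-amanitin by mean FPKM, with groups that did not overlap for either gene, as for 61.5% of the 14387 genes tested there. The log2 differences were 2.09 (SE 0.34, limma adjusted p = 0.00085) for Lzic and 0.89 (SE 0.25, limma adjusted p = 0.013) for Kctd9, where 60.5% of genes were called higher. In the NT and Am columns alone, Lzic differed 1.29-fold (0.33 on the log2 scale, SE 0.40, limma adjusted p = 0.60) and Kctd9 1.01-fold (0.0023, SE 0.26, 95% interval -0.59 to 0.59, limma adjusted p = 0.996), where 12.7% of genes were called higher. The difference between the sets, tested as an interaction term, was 1.76 for Lzic (SE 0.55, limma adjusted p = 0.021) and 0.89 for Kctd9 (SE 0.33, limma adjusted p = 0.043). When a library was left out, Lzic lost its call without Am1 (adjusted p = 0.053), and Kctd9 lost it without any library other than NT1 (adjusted p = 0.050 to 0.11). For Rnd3 it was -0.21 (SE 0.68, limma adjusted p = 0.83). A larger difference in the R and RAm columns was called for 36% of all genes, with a median of 0.76, so that Lzic lay 1.00 and Kctd9 0.13 above that median. Under median of ratios scaling the interaction was 0.78 (adjusted p = 0.30) for Lzic and 0.04 (adjusted p = 0.94) for Kctd9, and neither was called. Summed maternal transcripts moved with the sets as well, at 850 to 2233 FPKM in the RAm and 259 to 453 FPKM in the Am columns, and their part in these results was not tested. Early and late two-cell embryos, column set and any batch cannot be told apart.

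**Figure D2:**
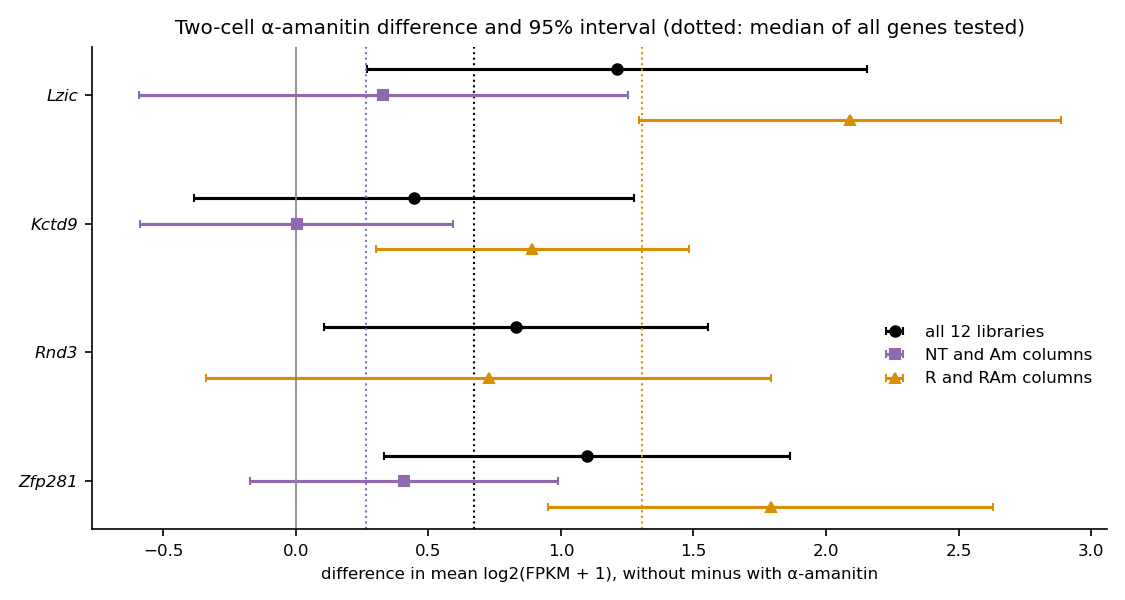
Difference in mean log2(FPKM + 1), without minus with α-amanitin, with its 95% interval from limma, for Lzic, Kctd9, Rnd3 and Zfp281, in all 12 two-cell libraries (black circles) and in each column set alone (purple squares and orange triangles). Dotted lines are the median of all genes tested in the same fit. The interval for Lzic in the NT and Am columns includes 0 and that in the R and RAm columns does not, and Rnd3 did not pass the filter in the NT and Am columns.

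How much of the two-cell difference was seen depended on the scaling of the libraries. The study's methods name normalization to spike-in counts for its own gene-level contrasts, whereas the main fit here used the deposited values without it. Added spike-in RNA took 2.38 to 6.26% of reads without and 6.54 to 11.3% with α-amanitin. Scaling to them moved the median difference of all genes from 0.67 to 1.49 on the log2 scale, with 71.4% of genes called higher without α-amanitin, whereas median of ratios scaling moved it to 0.24, with 21.9% of genes called higher. With spike-in scaling all 3 candidates in the fit were called: Lzic at 2.44 (SE 0.55, limma adjusted p = 0.0010), Kctd9 at 1.54 (SE 0.43, limma adjusted p = 0.0044) and Rnd3 at 1.42 (SE 0.37, limma adjusted p = 0.0028). Relative to the median of all genes, these differences were 0.94 for Lzic, 0.04 for Kctd9 and -0.07 for Rnd3. Nck2 then differed by 0.60 with an exact permutation p of 0.0087. With median of ratios scaling, Lzic differed by 0.50 (limma adjusted p = 0.23), Rnd3 by 0.43 (limma adjusted p = 0.37) and Kctd9 by -0.18 (limma adjusted p = 0.60), or by 0.26, 0.19 and -0.42 relative to the median of all genes. Tmem144 kept an exact permutation p of 0.0022 with spike-in and 0.0065 with median of ratios scaling, under which its groups overlapped because RAm1 lay above NT2 and r2.

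**Figure D3:**
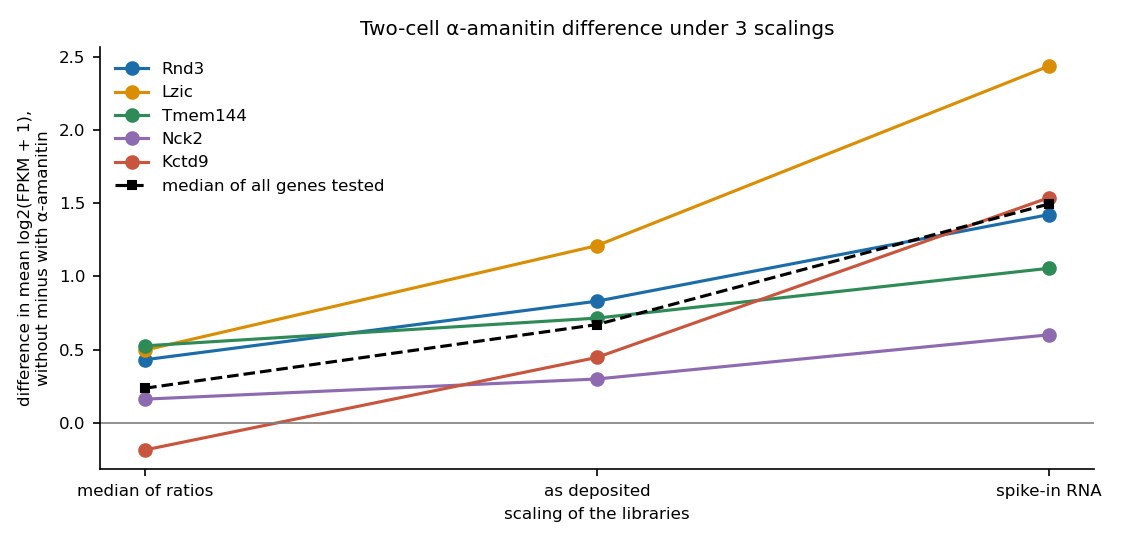
Difference in mean log2(FPKM + 1), without minus with α-amanitin, over 6 and 6 two-cell libraries for the 5 genes under 3 scalings of the libraries, with the median of all genes tested as a dashed line. Every gene and the median rise from left to right, Kctd9 lies below 0 at -0.18 under median of ratios, and Lzic lies above the median under all 3 scalings.

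Across the 5 candidates the two-cell levels without α-amanitin ran from Lzic (17.1 ± 4.28 FPKM) through Kctd9 (6.06 ± 1.99), Rnd3 (1.64 ± 1.23) and Tmem144 (0.728 ± 0.388) to Nck2 (0.502 ± 0.424; all SD, n = 6). Lzic and Kctd9 did not overlap, whereas Rnd3, Tmem144 and Nck2 overlapped with each other. Genes whose log2(FPKM + 1) followed each candidate most closely over the 12 libraries, as a description over points that share library, depth and treatment, were Mms22l (Pearson r = 0.99), Gm9231 (0.97) and Mettl2 (0.97) for Lzic. For Tmem144 they were Tnfrsf1a (r = 0.96), Sertad4 (0.95) and Enc1 (0.95), all 3 with at most 0.147 FPKM in any treated library. Kctd9 was followed by Swi5 (r = 0.96), Slc7a5 (0.96) and Eef1a1-ps1 (0.95), Rnd3 by Mirlet7i (0.88), Ddx3y (0.88) and Gm23864 (0.86), and Nck2 by Rmdn1 (0.94), Hint2 (0.92) and Gm13470 (0.91).

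The study's 3 further marker candidates, Kti12, Plk2 and Aqp3, were among those it proposed as markers after RT-PCR. Kti12, a partner of the Elongator complex, stood at 57.2 ± 19.6 FPKM without and 5.39 ± 5.39 FPKM with α-amanitin (SD, n = 6) at the two-cell stage. It was 4.69-fold higher without α-amanitin in the NT and Am columns, and the RAm libraries held 0.175, 1.36 and 0 FPKM. Plk2, a polo-like kinase, stood at 7.02 ± 7.21 and 0.402 ± 0.618 FPKM, and treated libraries held 1.51, 0.143 and 0 FPKM in the Am columns and 0.754, 0 and 0 FPKM in the RAm columns. The water and glycerol channel gene Aqp3 stood at 0.207 ± 0.418 and 0.0812 ± 0.149 FPKM, with overlap in both sets. Zfp281, a zinc finger transcription factor of pluripotent cells, had 13.4 to 34.4 FPKM without and 4.59 to 13.3 FPKM with α-amanitin. Its log2 difference of 1.10 (SE 0.36, limma adjusted p = 0.023) was 0.33 (limma adjusted p = 0.43) under median of ratios scaling and 0.41 (limma adjusted p = 0.29) in the NT and Am columns alone.

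Genes around the candidates were counted from lists that named their partners, beside 38.9% of all genes higher and 8.51% lower without α-amanitin and a median of 0.67. The share of all genes higher was 12.7% in the NT and Am columns alone, 71.4% with spike-in scaling and 21.9% under median of ratios, and the counts of the lists moved with these settings. Of the β-catenin partners, 1 of 10 was higher, Ctnnb1 itself (1.14), and 2 were lower, the destruction complex scaffolds Apc (-1.54) and Axin2 (-0.55), with a list median of -0.12. In the NT and Am columns alone none of 7 was higher and 1 was lower. With spike-in scaling 5 of 10 were higher and none lower, with a median of 0.81 and values of -0.20 for Apc and -0.07 for Axin2. Under median of ratios none was higher and 3 were lower, with a median of -0.77, and Ctnnb1 was not called (0.46, limma adjusted p = 0.28).

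Of the Nck adaptor partners, 6 of 15 were higher and 2 lower, with a median of 0.69, both near the values over all genes. In the NT and Am columns alone 1 of 15 was higher and none lower, with spike-in scaling 10 were higher and none lower, and under median of ratios 5 were higher and 5 lower. Nck1, the paralog of Nck2, was higher without α-amanitin, at 4.97 ± 2.14 against 0.616 ± 0.503 FPKM (SD, n = 6; log2 difference 1.87, SE 0.30, limma adjusted p = 0.00061), and its groups did not overlap. It was called in the NT and Am columns alone as well (1.55, limma adjusted p = 0.044). The exchange factor Sos1 (1.88), the kinase Pak2 (1.80) and the WASP partner Wipf1 (1.72) were higher over all 12 libraries.

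For the KCTD family and the Cul3 ligase, 6 of 12 were higher and 1 lower over all 12 libraries, with a median of 0.81. None of the 11 tested in the NT and Am columns alone was called, 11 of 12 were higher with spike-in scaling, and 3 were higher and 1 lower under median of ratios. Over all 12 libraries Cul3 (2.63), its RING partner Rbx1 (1.40), Kctd20 (1.31) and Kctd6 (1.20) were higher, and under median of ratios Rbx1 (0.59, limma adjusted p = 0.12) and Kctd6 (0.86, limma adjusted p = 0.086) were not called. The Slc35 family of nucleotide sugar transporters and relatives had 6 of 16 higher and none lower, with a median of 0.70, led by Slc35e3 (45.8 against 2.49 FPKM, 4.07) and followed by Slc35f2 (1.52), Slc35e2 (1.36) and Slc35e4 (1.26). In this family 1 of 12 was higher in the NT and Am columns alone 15 of 16 with spike-in scaling and 4 of 16 under median of ratios, where Slc35f2 was not called (0.94, limma adjusted p = 0.13). Of the list of ZFP281 and retinoic acid receptors, Zfp281 and Rarg (1.05) passed the filter and both were called, though neither was in the NT and Am columns alone or under median of ratios, where Rarg had 0.67 (limma adjusted p = 0.092).

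The genes had been selected on the α-amanitin difference at the four-cell stage, so these values are a description and support nothing further. Without α-amanitin Lzic stood at 44.4, 35.3 and 28.1 FPKM and with it at 2.36, 2.94 and 7.07 FPKM. Tmem144 stood at 15.6, 7.55 and 14.1 FPKM without and at 2.17, 0 and 0 FPKM with α-amanitin. Rnd3 stood at 2.82, 3.07 and 11.2 FPKM without, high in 1 library, and at 0, 0.364 and 0 FPKM with it. All 3 genes separated the groups.

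Nck2 had 3.84, 3.84 and 2.33 FPKM without and 0, 0.290 and 0.197 FPKM with α-amanitin at the four-cell stage, while Kctd9, with 3.12, 1.66 and 3.22 against 0.265, 0.136 and 1.85 FPKM, had groups that overlapped by 1 treated library. Log2 differences were 3.14 for Tmem144, 2.94 for Lzic, 2.37 for Rnd3, 1.89 for Nck2 and 1.17 for Kctd9, in a fit that called 11.1% of 9884 genes higher without α-amanitin and in which 27.6% of genes had untreated libraries that were all higher. Leaving out S7, S15, S17, S8 or S18 changed the number of genes called higher from 1093 to 57, 79, 129, 651 and 511. The pooled two-cell log2 differences were 0.72, 1.21, 0.83, 0.30 and 0.45 for the same 5 genes in that order. The four-cell values were larger for each on this scale, which understates the change of low genes such as Tmem144 at the two-cell stage. By ratio of mean FPKM Tmem144 alone took the other order, at 20.6-fold at the two-cell and 17.2-fold at the four-cell stage. Its treated means rest on 7 and 12 reads. The tables were normalized separately and these comparisons were not tested.

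**Figure D4:**
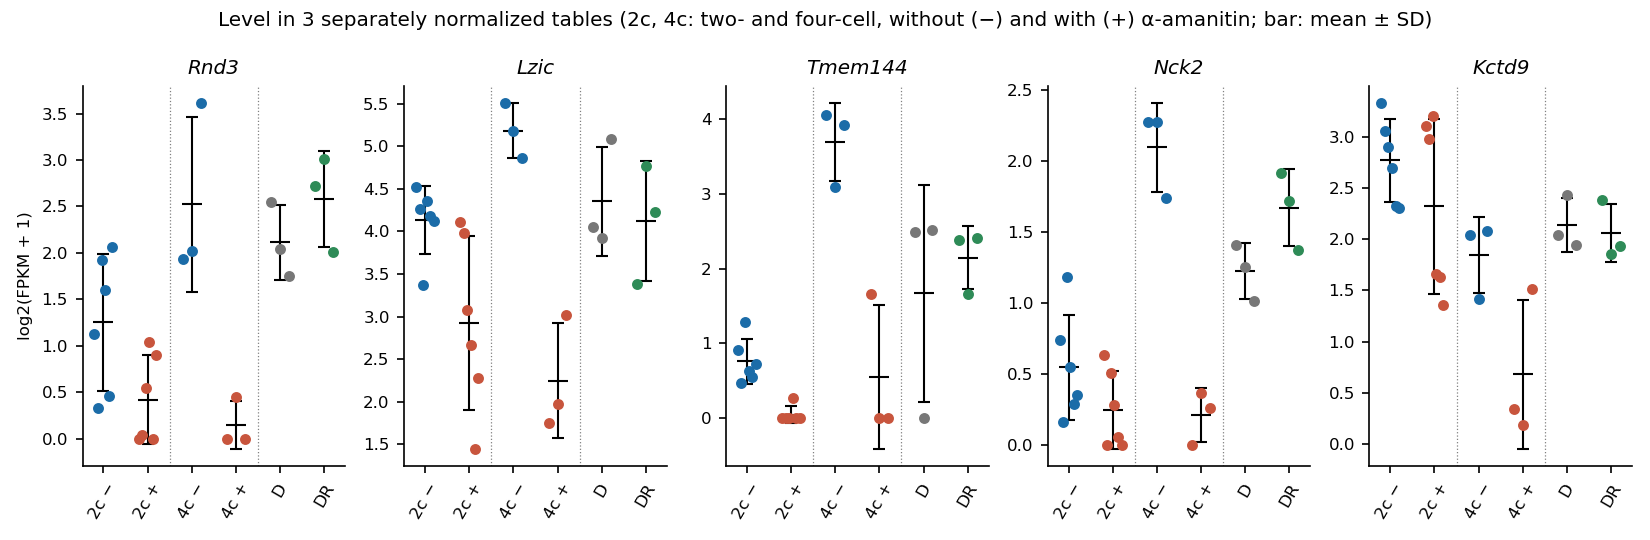
Level of the 5 genes as log2(FPKM + 1) in each library of the two-cell, four-cell and replication tables, with mean and SD in black, blue without and red with α-amanitin, grey for D and green for DR. The 3 tables were normalized separately. The four-cell groups separate for each gene but Kctd9, the two-cell groups separate for Tmem144, and D and DR overlap for all 5.

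Between the D and DR groups none of the candidates differed beyond the spread of the libraries. No gene of the 14570 tested was called (0% in either direction by limma, with 897 genes at an unadjusted p under 0.05, and 0 called by voom on the recovered reads). Rnd3 had 4.86, 3.13 and 2.36 FPKM in D and 5.57, 7.06 and 3.03 FPKM in DR. Tmem144 had 4.64, 0 and 4.73 FPKM in D, with no read in D4, the deepest library, and 4.20, 2.16 and 4.30 FPKM in DR. Lzic, from 9.39 to 33.0 FPKM over the 6 libraries, Kctd9, from 2.63 to 4.40 FPKM, and Nck2, from 1.01 to 2.77 FPKM, overlapped between the groups too. Log2 differences, DR minus D, were 0.46 (95% interval -0.40 to 1.33) for Rnd3, -0.23 (-1.30 to 0.84) for Lzic, 0.48 (-1.14 to 2.09) for Tmem144, 0.45 (-0.20 to 1.10) for Nck2 and -0.08 (-0.76 to 0.61) for Kctd9, with limma adjusted p of 0.80 to 0.96. The exact permutation p-values were 0.20 to 1, where 3 against 3 libraries cannot go below 0.10. With spike-in scaling the median of all genes moved from 0.016 to -1.41, and the differences of Rnd3, Tmem144 and Nck2 turned negative with it, in libraries where spike-ins took 0.0181 to 0.776% of reads.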

How the data were processed

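RNA-seq of pooled NT embryos was measured in 12 two-cell, 6 four-cell and 6 replication libraries. Per the labels and the methods, the authors trimmed reads with Trimmomatic, Trim Galore and cutadapt and mapped them to mm10 with STAR, and the submitters' processing notes name featureCounts, with versions not given in the sources used here. The deposited values are FPKM, normalized by the authors to counted reads and gene length without spike-in scaling. Reads recovered as FPKM × length × depth were whole in the four-cell table (100%, tolerance 0.01) and lay on hundredths in the others (40.3 to 50.5% whole), so counts there are fractional. Another 4 columns of the replication table were not used, nor was the oryx experiment.

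Groups were tested with limma 3.58.1 (R 4.3.3, trend, Benjamini-Hochberg) on log2(FPKM + 1), which understates changes of low genes, after a filter of 1 FPKM in 3 libraries, and single genes with two-sided exact permutation tests. Neither the main fit nor the permutation tests took the column set into account. Fits were checked on simulated data in which only better expressed genes were changed. The simulation held no shift of all genes and no column set effect, so it does not cover these or low genes. Named genes were the candidates, Aqp3, Plk2, Kti12, Zfp281, the 3 genes most correlated with each candidate and up to 4 called genes per list. The result of 1 list is not reported here. The candidates and lists were chosen with earlier results of these data known. Alternatives were a pseudocount of 0.1, no filter, 2 other scalings, voom, a replicate block, leaving out libraries and, added after the column names were seen, column sets.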

Additional observations from a re-analysis of the deposited data

Results flagged for a closer look

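Lzic and Kctd9 had a larger α-amanitin difference in the R and RAm columns than in the NT and Am columns of the two-cell table. The difference between the sets was 1.76 on the log2 scale for Lzic (limma adjusted p = 0.021) and 0.89 for Kctd9 (limma adjusted p = 0.043), the interaction term of a fit in which 36% of all genes had a larger difference in the R and RAm columns. Under median of ratios scaling the values were 0.78 for Lzic (adjusted p = 0.30) and 0.04 for Kctd9 (adjusted p = 0.94), and Kctd9 lost its call in 11 of the 12 fits that left out 1 library. For Lzic, 3 of 3 RAm libraries and 1 of 3 Am libraries were lower than every untreated library. Stage, column set and batch cannot be told apart.

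A single treated library held Tmem144 reads. RAm1 had 0.212 FPKM while the other 5 treated two-cell libraries had 0. With 5 libraries at 0, any library with reads stands apart in this way, so the gap itself carries no weight.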

How the results depend on the processing

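In the two-cell contrast, genes higher and lower without α-amanitin numbered 6694 and 1464. They numbered 3768 and 2443 with median of ratios and 12276 and 281 with spike-in scaling. In the NT and Am columns alone they numbered 1814 and 597, and in the R and RAm columns alone 8698 and 2353. Leaving out 1 library gave 5043 to 7493 and 1024 to 1723. Lzic (1.21) was not called with no filter (1.21, adjusted p = 0.073), median of ratios (0.50) or the NT and Am columns alone (0.33), and its leave-one-out range was 0.92 to 1.45. Rnd3 (0.83) was called with voom (3.10, adjusted p = 0.039), spike-in scaling (1.42), the column set as covariate (0.83, adjusted p = 0.048) and the replicate block below, with 0.67 to 1.01 when leaving out 1 library. Kctd9 (0.45) reversed to -0.18 with median of ratios, was called with spike-in scaling (1.54) and in the R and RAm columns alone (0.89), and ranged from 0.25 to 0.62 without 1 library.

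In exact permutation tests, Rnd3 passed with a pseudocount of 0.1 (2.08), with spike-in scaling (1.42) and without NT2, r2, RAm1 or RAm3, Nck2 (0.60) and Kctd9 (1.54) with spike-in scaling, Lzic (0.50) failed and Kctd9 reversed (-0.18) with median of ratios. Leaving out 1 library gave 0.61 to 0.77 for Tmem144 (p = 0.0022 in each exact permutation test) and 0.17 to 0.38 for Nck2. The difference between column sets was not called with median of ratios for Lzic (0.78) or Kctd9 (0.04), reached 0.53 for Rnd3 with spike-in scaling, a reversal, and ran from 1.42 to 2.08 for Lzic, 0.76 to 1.00 for Kctd9 and -0.61 to 0.25 for Rnd3 without 1 library. Kctd9's adjusted p was at or above 0.05 in 11 of those 12 fits and Lzic's in 1. The causes were not tested.

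Four-cell counts of 1093 higher and 112 lower became 673 and 59 with a pseudocount of 0.1 and 275 and 9 with no filter. They became 760 and 223 with median of ratios, and 57 to 1362 and 6 to 131 without 1 library. DR against D gave 0 calls in all 11 alternatives. Spike-in scaling, which moved the median of all genes to -1.41, reversed Rnd3 (-1.20), Tmem144 (-0.39) and Nck2 (-0.98), and without 1 library Lzic ran from -0.55 to 0.14, Tmem144 from -0.36 to 0.90 and Kctd9 from -0.24 to 0.071.

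The replicate block paired two-cell libraries by column number within a set, although the deviations of same-numbered libraries correlated at only 0.015 to 0.065, so the libraries share only a number. With the block Rnd3 was called (0.83, adjusted p = 0.026), Lzic had an adjusted p of 0.044, Zfp281 was no longer called (adjusted p = 0.056), and 6027 and 1344 genes were called. The NT time as a covariate, or each NT time alone, was not run, since the columns do not give it. Tmem144 and Nck2 rest on at most 43 reads per two-cell library.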
